A study of Polistes fuscatus with 17 samples.

Results

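The 200 contigs whose level varied least between single brains of the paper wasp Polistes fuscatus are described here, out of 157691 contigs counted. They were chosen by their measured spread: counts were scaled to counts per 1000000 of the library total (CPM), wasp F17 was left out, and the 200 contigs with the smallest standard deviation (SD) of log2(CPM+1) over the other 16 wasps were kept. Only contigs with a mean of 32 CPM or more that were not among the 100 most abundant could enter, which left an abundance window of 5814 contigs, of which the 200 are 3.44%. A contig is an assembled stretch of transcript, and 1 gene can be split over several. None of the contig identifiers is paired with a gene name in the sources used here, with 0 of 157691 found among 13634 entries of the RefSeq gene table, so contigs go by identifier and whether the set holds the usual reference genes was not analysed here.

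The wasps were adult females, each an animal and a library of its own, and the study addressed brain gene expression in facial recognition. Foundresses had been taught in a T-maze to tell apart either faces of their own species (5 wasps) or simple patterns (4 wasps, F17 among them). Workers had all been taught faces, after 4 had lived on an allospecific nest (Polistes metricus) and 4 on a conspecific one. Every wasp went through 40 trials and was frozen 30 minutes after the last. Foundresses trained to faces, F17 and F3 were collected in May 2012, F34 and F52 in June, and workers in July and August, so caste cannot be told apart from season, age and rearing. Every worker had lived on a non-natal nest, and no untrained wasp was among the samples.

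Foundresses overwinter as mated queens and start nests in spring, while their worker daughters emerge in summer and forage. Transcripts with nearly the same level in every animal are what a reference gene offers: a level against which change elsewhere can be read. In insect brains genes for ribosomal proteins, elongation factors and cytoskeletal proteins are often used in this way.

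Library totals ran from 7694420 counts in F3 to 20360420 in F29, with 15247636 in F17. F17 stood apart from the others: over the window its median absolute deviation from them was 0.61 log2, against 0.12 to 0.29 log2 in the other 16, each read against the rest, with F34 highest. The labelled brain origin could not be checked against marker genes, because the identifiers carry no names. With libraries scaled by the trimmed mean of M-values (TMM) in place of totals, F17 moves up by 0.35 log2 relative to its total-scaled level, so counts of members higher or lower in F17 depend on the scaling.

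Within the 16 wasps of the rule the 200 contigs had SDs of 0.0578 to 0.111 log2 (median 0.10), against a median of 0.219 over the window. These values chose the members and are given as a description. The highest of the 16 wasps exceeded the lowest by 1.15 to 1.41-fold in the members (median 1.29-fold), against a median of 1.72-fold in the window. The mean level of the members ran from 32.05 to 279.0 CPM (median 49.4 CPM). CPM are not scaled to contig length, so levels are compared within a contig and not between contigs. In F3, the shallowest library, the members held 225 to 2198 counts.

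**Figure D1:**
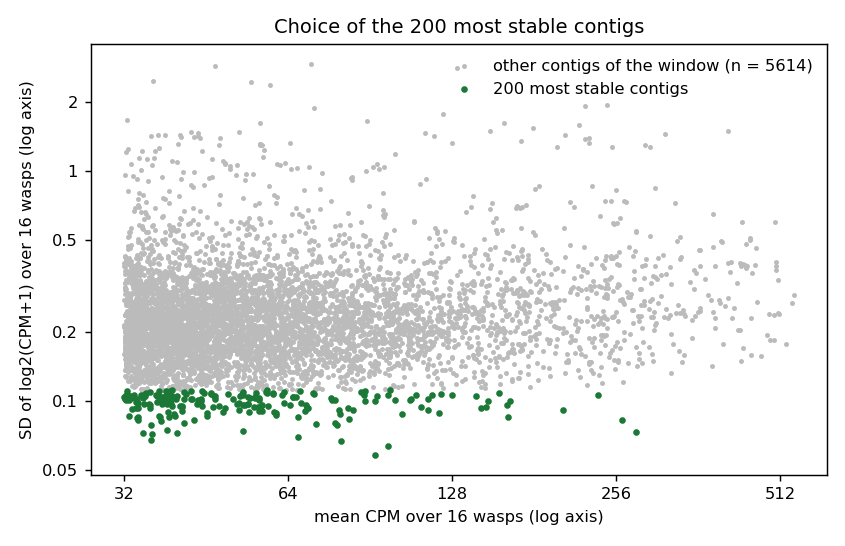
Mean CPM over 16 wasps (log axis) against the SD of log2(CPM+1) over the same wasps (log axis) for the 5814 contigs of the abundance window, 1 point per contig. The 200 members, in green, lie at SDs up to 0.111, from 32.05 to 279.0 CPM.

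PfusTSAr1.0-107276 had the smallest SD of all. It stood at 85.1, 87.4, 94.9, 94.6 and 96.5 CPM in foundresses trained to faces, at 93.4, 97.6 and 89.9 CPM in F3, F34 and F52, at 92.1, 86.3, 92.6 and 94.9 CPM in workers on allospecific nests and at 91.2, 90.4, 96.3 and 92.9 CPM in workers on conspecific nests. The 4 groups overlapped. F17, which did not enter the rule, had 49.3 CPM, well under the lowest of the other 16.

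The second, PfusTSAr1.0-032747, had 85.4, 101.4, 99.6, 99.8 and 99.2 CPM in foundresses trained to faces and 95.5, 95.5 and 95.7 CPM in F3, F34 and F52. It had 95.4, 96.3, 96.7 and 95.3 CPM in workers on allospecific nests and 105.1, 100.2, 99.9 and 98.9 CPM in workers on conspecific nests. F25 was the low wasp and FW10 the high one. On totals every conspecific worker lay above every allospecific worker and above F3, F34 and F52. On the TMM scale the 2 groups of workers overlapped. Such separation between nests was not counted over all contigs, so nothing is read from it. F17 had 53.6 CPM, again under all the other wasps.

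In PfusTSAr1.0-098596, the third, F17 stood on the other side, at 111.2 CPM against 73.2 to 86.6 CPM in the 16. PfusTSAr1.0-054519 was low in F17, at 22.3 CPM against 33.1 to 39.2 CPM. In the other 4 of the 8 most stable contigs F17 kept to the range: PfusTSAr1.0-110646 had 68.7 CPM in F17 and 61.4 to 72.5 CPM in the 16. PfusTSAr1.0-066193 had 35.2 CPM in F17 and 33.0 to 39.2 CPM in the 16. PfusTSAr1.0-113788 had 35.1 CPM in F17 and 31.7 to 37.9 CPM in the 16, and PfusTSAr1.0-056167 had 40.5 CPM in F17 and 36.9 to 43.7 CPM in the 16. Among the 8, F17 was therefore below the range in 3, above it in 1 and inside it in 4 on the scale of totals. On the TMM scale those 4 lay above the range in F17, so this tally depends on the scaling.

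The 4 members of highest mean CPM were PfusTSAr1.0-048240, PfusTSAr1.0-048244, PfusTSAr1.0-101257 and PfusTSAr1.0-048239. F17 had 230.3 CPM of the first, against 245.6 to 301.1 CPM in the 16. It had 220.6 CPM of the second, against 225.5 to 294.5 CPM. In both, F17 lay below the range on totals but above it on the TMM scale, so its side depends on the scaling. In the remaining pair F17 lay inside the range on totals and above it on the TMM scale. It had 208.2 CPM in PfusTSAr1.0-101257, where the 16 had 202.4 to 278.7 CPM. In PfusTSAr1.0-048239 it had 186.2 CPM, where they had 180.1 to 223.0 CPM. The identifiers 048239, 048240 and 048244 lie close together, and the counts do not tell apart reads that fit more than 1 of them.

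At the edge of the choice, the last members inside were PfusTSAr1.0-107386 and PfusTSAr1.0-100264, both with an SD of 0.111. The first contigs outside, PfusTSAr1.0-074809 and PfusTSAr1.0-110653, had an SD of 0.111 too, so nothing sets rank 200 apart from rank 201. Over the 16 wasps PfusTSAr1.0-100264 ran from 83.7 to 114.6 CPM and PfusTSAr1.0-074809 from 56.5 to 75.6 CPM.

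Part of the small spread that remains is counting error. From the counts alone the members would have had an SD of 0.0214 to 0.0633 log2 (median 0.0511). Their measured SD was 1.13 to 4.55 times that (median 1.91), against a median of 4.66 times in the window. The members thus lay closer to the counting error than the window did, which the choice by SD favours. This bound covers counting error only, since reads without molecular identifiers are not independent molecules.

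Many members lay close to another member along the identifier list. With identifiers within 10 of each other taken as a run, the 200 contigs formed 131 runs, of which 87 held a single contig and 44 held 2 to 5, and 56.5% of members had another member in their run. Runs were not counted over the window, whose contigs have close identifiers too, so nothing is read from this share. The 261 contigs of the window that lay within 10 of a member without being one had a median SD of 0.165 log2, against 0.225 log2 in the 5353 farther away. Neighbouring contigs can be pieces of 1 transcript, so the 200 contigs may stand for fewer genes. The longest run lay between PfusTSAr1.0-103481 and PfusTSAr1.0-103495 and held 5 members, with F17 above the median of the other wasps by 0.14 to 0.28 log2 in all of them.

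Together the 200 contigs held nearly the same share of each of the 16 libraries of the rule. This follows from their choice for a small spread of CPM, so nothing is read from it. The share was 1.26 ± 0.0314% (SD, n = 5) in face-trained foundresses, 1.21 ± 0.0345% (n = 3) in F3, F34 and F52, 1.25 ± 0.0310% (n = 4) in workers on allospecific nests and 1.26 ± 0.0301% (n = 4) in workers on conspecific nests. F17 had 1.13%, the lowest of the 17, and F34 was next with 1.18%, while F55 had the highest with 1.31%. On the TMM scale F17 is highest in place of lowest, with F17 at a level equal to 1.44% and the other 16 at 1.17 to 1.32%.

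F17 was the 1 library the rule had not used. Its log2 deviations from the median of the other 16 wasps ran from -1.63 to 1.13 over the members. The middle 50% of them spanned 0.73 log2; rescaling a library shifts all its deviations by nearly the same amount and leaves this width almost as it is. It was outside the range of the other 16 in 138 of the 200 members (69.0%), against 61.7% over the window. In 91 it lay below that range, where the window gives 42.1%, and in 47 above it, where the window gives 19.7%. The rule chose members for a narrow spread over the 16, which makes their range easier to leave, so nothing is read from the excess over the window. These counts come from 1 library against 16, so they have no replicate check and carry no p. In RNA of a whole brain, fewer cells of a type and less RNA per cell cannot be told apart.

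The size of the deviation was smaller in the members than over the window. Of the 200, 58 (29%) were over 1.5-fold from the median of the other 16 wasps, against 51.1% over the window. By this threshold 51 of the 200 (25.5%) were lower in F17, where the window gives 37.5%, and 7 (3.5%) were higher, where the window gives 13.6%. Only 8 members were over 2-fold away, 7 lower and 1 higher. The median absolute deviation from the other wasps was 0.34 log2 over the members and 0.61 log2 over the window, beside a median counting SD of 0.055 log2 for a member in F17. Both figures hold on the scale of totals. On the TMM scale the median deviation of these 200 was 0.23 log2 in place of -0.15, with 39 over 1.5-fold higher and 9 lower, so the balance of higher and lower members in F17 is set by the scaling. Centring each library on the members themselves puts the median deviation of F17 at -0.0013 log2 by construction, so an even balance there follows from the step. With it 77 were above the range and 77 below it, and 16 were over 1.5-fold higher and 29 lower.

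**Figure D2:**
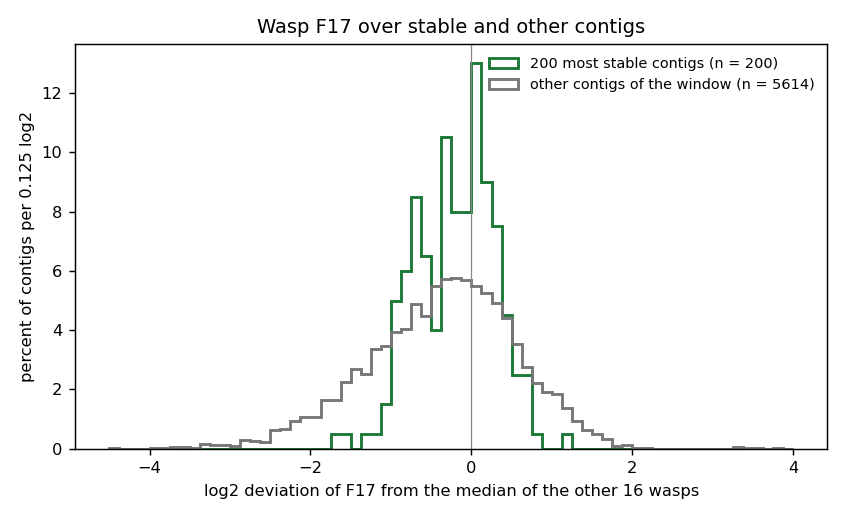
Distribution of the log2 deviation of F17 from the median of the other 16 wasps, as the percent of contigs per bin, for the 200 members (green) and the 5614 other contigs of the window (grey). Libraries are scaled by totals. The members are the narrower set, with a median absolute deviation of 0.34 log2 against 0.61 log2 over the whole window.

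Across the window the contigs that varied less among the 16 wasps also deviated less in F17. With the window divided by SD into 10 bins of 581 or 582 contigs, bins picked after their values were known, the median absolute deviation of F17 was 0.37 log2 in the most stable bin, 0.59 log2 in bin 5 and 0.81 log2 in bin 10. Spearman's rho between the SD and the size of the deviation was 0.25 across the 5814 contigs, and -0.031 within the 200 members. Contigs are not independent replicates, and all of them share the F17 library.

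To give F17 a yardstick, each of the other 16 wasps was left out in turn, 200 contigs were chosen on the remaining 15 by the same rule, and the wasp left out was read against them. F17 had a median absolute deviation of 0.34 log2, and the 16 others had 0.0589 to 0.189 log2 (median 0.0797). The next after F17 was F34, and without it the others ended at 0.109 log2, in FW11. Over 1.5-fold deviations numbered 58 in F17, 7 in F34 and 0 in each of the 15 others. The wasp left out was outside the range of the rest in 138 contigs for F17, in 114 for F34 and in 21 to 55 for the others.

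Part of F34's distance was an offset common to the list, while that of F17 remained after centring. The middle 50% of deviations spanned 0.73 log2 in F17, 0.21 log2 in F34 and 0.12 to 0.21 log2 in the others. Once each wasp was centred on its own list, the median absolute deviation was 0.35 log2 in F17, 0.10 log2 in F34 and 0.058 to 0.107 log2 in the other 15. F3, with the fewest counts, had 0.0732 log2 before centring. Within the foundresses the values without F17 ran from 0.0633 to 0.189 log2, and within the workers from 0.0589 to 0.109 log2.

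**Figure D3:**
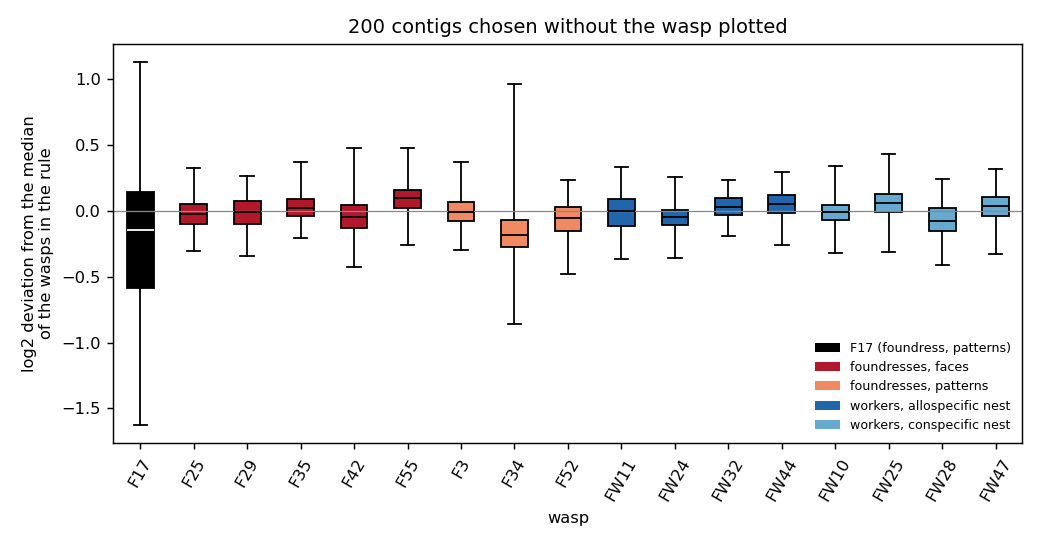
Log2 deviation of each wasp, in 200 contigs chosen without it, from the median of the wasps in the rule. Boxes span the middle 50% with a line at the median, whiskers reach the lowest and highest contig, and F17 (black, left) has a box of 0.73 log2 against 0.12 to 0.21 log2 in the other 16.

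The ratio between window and list in F17 lay among those of the other wasps. Its median absolute deviation was 1.78 times larger over the window than over the members. In the other 16 wasps, each with its own list, this ratio was 1.53 to 2.68 (median 1.94).

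Of the 6 members lowest in F17, 4 formed neighbouring pairs. PfusTSAr1.0-047470 had 11.9 CPM in F17, from 181 counts. The other wasps had 39.3, 35.1, 34.3, 38.3 and 39.4 CPM as foundresses trained to faces, 41.5, 35.8 and 37.3 CPM in F3, F34 and F52, 37.5, 38.8 and 38.8 CPM in the allospecific workers FW24, FW32 and FW44, and 42.1, 39.5, 41.4 and 40.1 CPM in conspecific workers. FW11, the remaining allospecific worker, was the lowest of the 16 at 31.2 CPM.

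Its neighbour PfusTSAr1.0-047473 had 12.3 CPM in F17 and 32.4 to 43.6 CPM in the 16, again with FW11 lowest. PfusTSAr1.0-058265 had 14.95 CPM in F17 and 34.9 to 45.1 CPM in the 16, with FW11 and F55 about level as the lowest. On the TMM scale F55 was the lowest of the 16. PfusTSAr1.0-064662 had 15.6 CPM in F17 and 32.2 to 43.3 CPM in the 16. In each of these F17 lay under the lowest of the 16. The neighbours PfusTSAr1.0-093295 and PfusTSAr1.0-093305 had 24.7 and 23.3 CPM in F17, against 43.6 to 60.2 and 44.1 to 58.1 CPM in the 16.

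PfusTSAr1.0-043682 was the member highest in F17, at 88.2 CPM. It had 38.9, 39.8, 37.6, 39.7 and 41.2 CPM in foundresses trained to faces, 36.3, 40.7 and 38.8 CPM in F3, F34 and F52, 42.3, 38.2, 40.5 and 42.4 CPM in allospecific workers and 39.7, 45.6, 39.03 and 47.1 CPM in conspecific workers. No other wasp came near the level of F17. PfusTSAr1.0-107655 had 117.5 CPM in F17 and 57.1 to 75.7 CPM in the 16.

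PfusTSAr1.0-044030 stood at 59.6 CPM in F17 and 30.6 to 39.5 CPM in the 16. The neighbours PfusTSAr1.0-064099 and PfusTSAr1.0-064095 had 59.0 and 58.4 CPM in F17, against 31.2 to 39.8 and 30.7 to 39.3 CPM. PfusTSAr1.0-099072 had 112.8 CPM in F17 and 62.2 to 80.1 CPM. On totals its run partner PfusTSAr1.0-099064 lay on the other side, with a deviation of -0.27 log2 in F17, a side that depends on the scaling. In 58 of 69 neighbouring pairs of members both lay on the same side of the other wasps on totals, where 80 of the 200 members were higher and 120 lower in F17. The median difference between the deviations of a pair was 0.080 log2. Other pairs of members or of the window were not counted, so nothing is read from the 58. Taking 1 contig per run left the share over 1.5-fold at 29% of 131.

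**Figure D4:**
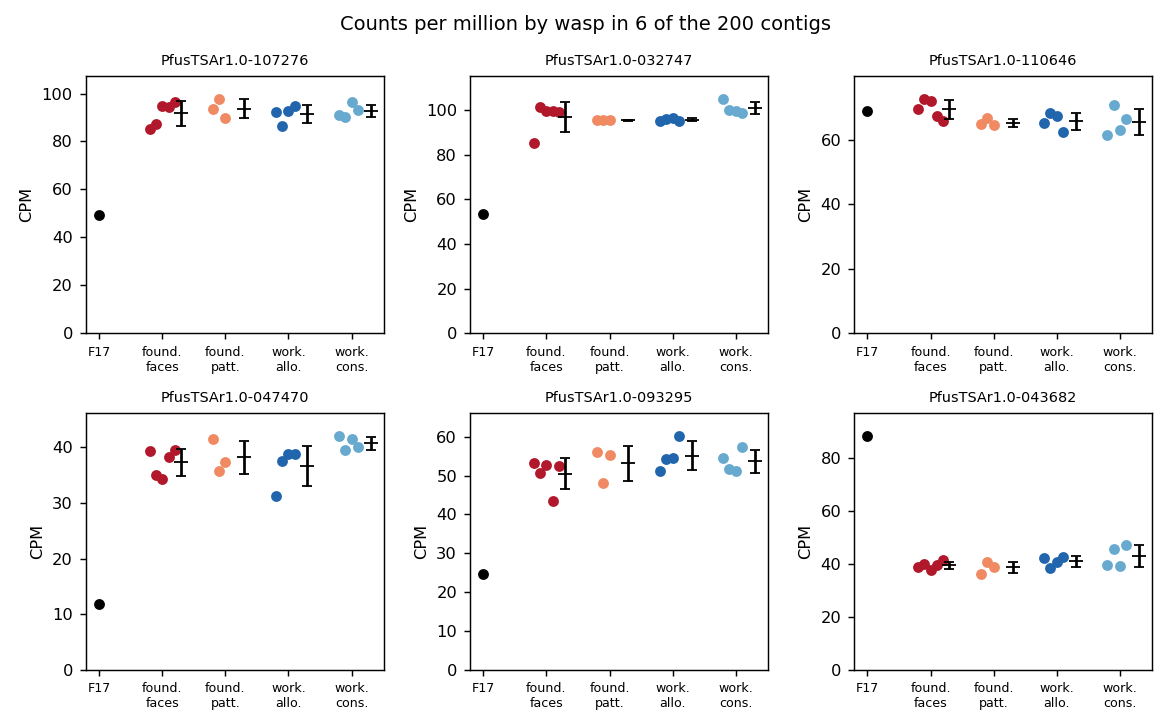
CPM of 6 members by wasp, with F17 at the left and then the 4 groups without it, 1 point per wasp, and bars for the mean and SD of a group. Libraries are scaled by totals. On the TMM scale F17 lies above the range in PfusTSAr1.0-110646 too. F17 lies at 49.3, 53.6, 11.9 and 24.7 CPM in PfusTSAr1.0-107276, PfusTSAr1.0-032747, PfusTSAr1.0-047470 and PfusTSAr1.0-093295, below all others, inside the range in PfusTSAr1.0-110646 and above all others, at 88.2 CPM, in PfusTSAr1.0-043682.

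The pattern of F17 over stable contigs recurred, at a smaller size, in the worker FW11, which had the highest correlation and was named after all values were seen. Over the 200 contigs chosen without either wasp, the deviations of FW11 and F17 had a Pearson correlation of 0.69 and a Spearman correlation of 0.67 across contigs, and a rise of 1 log2 in F17 went with 0.18 log2 in FW11. Of the 57 contigs over 1.5-fold lower in F17, 52 were lower in FW11 than the median of the wasps in the rule. The median deviation of FW11 was -0.13 log2 in those 57 and -0.0039 log2 over all 200. In the other wasps, each with its own list, the same count ran from 7 of 43 in F55 to 36 of 48 in F34. These counts depend on the offset of a wasp on totals: the median deviation over all 200 was 0.097 log2 in F55 and -0.18 log2 in F34. F34 was also lower in 64 of the 74 contigs that were higher in F17, so its count does not show likeness to F17. Of the 77 contigs higher in F17 by any amount, 58 were higher in FW11 (median 0.088 log2).

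FW25 had a correlation of 0.43 and FW10, at the other end, -0.53. The other 13 wasps had -0.27 to 0.16. All deviations are taken from a shared median, neighbouring contigs can be pieces of 1 transcript, and each value rests on 2 libraries, so they are given as a description. With 1 contig per run the correlation for FW11 was 0.68 over 133 contigs. With lists chosen on TMM-scaled CPM it was 0.66 for FW11, 0.36 for F35, 0.31 for FW25 and -0.52 for FW10, so the wasp that follows FW11 depends on the scaling.

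In the rest of the window the order was a different one. FW11 had a correlation of 0.41 with F17 over 5603 contigs, F29 had 0.45 and F35 had 0.44, while over the stable contigs F29 had 0.14 (0.12 with the TMM list) and F35 had 0.16 (0.36 with the TMM list). FW25 had 0.12 there and FW10 had -0.22. F34, the other library that stood apart, had -0.17 over its stable list and 0.11 over the rest of the window. FW11 is a worker of the allospecific group collected in July, and F17 a foundress trained to patterns collected in May.

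**Figure D5:**
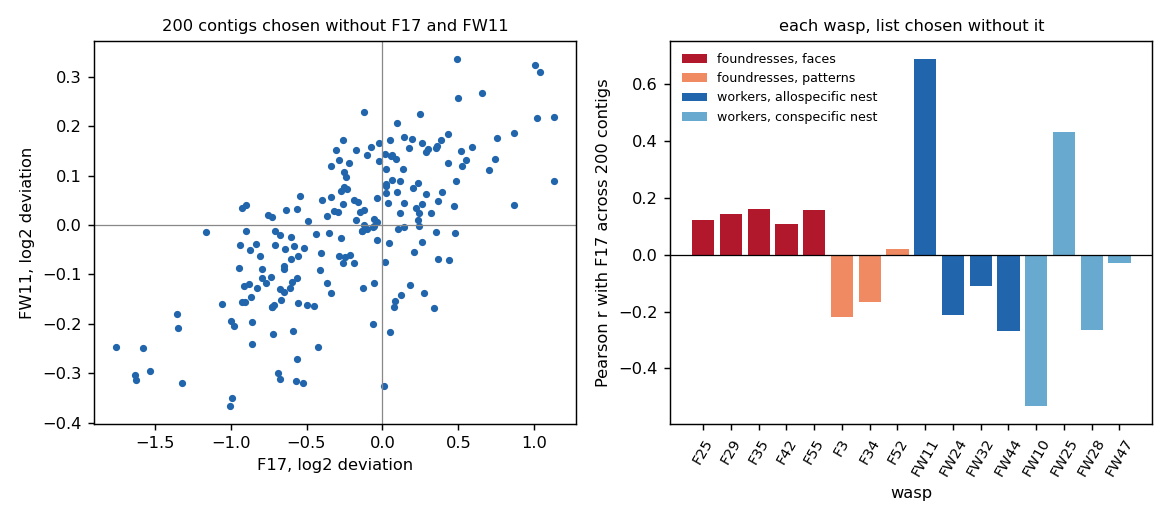
Left, log2 deviations of F17 (x axis) and FW11 (y axis) from the median of the other 15 wasps in 200 contigs chosen without both, 1 point per contig. Right, the Pearson correlation with F17 of each wasp in 200 contigs chosen without it, coloured by group, which runs from -0.53 in FW10 to 0.69 in FW11.

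Foundresses and workers were close over the 200 contigs, as the rule requires. On total-scaled CPM the mean of the 8 foundresses without F17 minus that of the 8 workers was -0.18 to 0.14 log2 in every member (median -0.0094), with 90 higher and 110 lower in foundresses. On the TMM scale 155 were higher and 45 lower (median 0.064 log2), so the side on which most members fall turns with the scaling. The median of the window was -0.11 log2 on totals, -0.092 log2 with libraries scaled to the sum of the members and -0.034 log2 on TMM.

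The castes did not overlap in 1 member, where the window gives 4.54%. This was PfusTSAr1.0-102327, at 115.4, 96.9, 115.5, 104.0 and 114.1 CPM in foundresses trained to faces and 113.1, 105.0 and 116.8 CPM in F3, F34 and F52. Workers had 122.5, 124.0, 117.4 and 127.1 CPM on allospecific nests and 120.7, 120.7, 118.8 and 120.6 CPM on conspecific nests. On totals F17 had 96.3 CPM, on the side of the foundresses and under all of them. On the TMM scale the castes overlapped in this contig and F17 lay above all other wasps, so both depend on the scaling. The log2 fold change of PfusTSAr1.0-102327 on that scale, foundresses trained to faces over workers, was -0.078 (SE 0.083, adjusted p = 0.68 in edgeR's quasi-likelihood test).

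In the test over all contigs, 0 of the 200 members passed a false discovery rate (FDR) of 0.05 between foundresses trained to faces and workers, where 2.45% of all 61002 tested contigs passed. All 200 were among those tested. At an unadjusted p under 0.05 there were 2 members, against 17.3% of all contigs. The rule used the same wasps, so nothing is read from these counts.

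The members with the smallest p on the higher side were PfusTSAr1.0-052008, at 40.2 ± 1.78 CPM (SD, n = 5) in foundresses trained to faces, 37.4 ± 1.91 CPM (n = 4) in allospecific and 36.9 ± 1.73 CPM (n = 4) in conspecific workers, and PfusTSAr1.0-104448, at 59.2 ± 2.44, 53.3 ± 1.67 and 55.3 ± 1.35 CPM in the same order. Their log2 fold changes were 0.20 (SE 0.088, adjusted p = 0.26) and 0.20 (SE 0.094, adjusted p = 0.27). On the lower side, beside PfusTSAr1.0-102327, was PfusTSAr1.0-042102, at 93.0 ± 2.92 CPM in foundresses trained to faces, 102.9 ± 4.38 CPM in allospecific and 105.0 ± 2.83 CPM in conspecific workers, with a log2 fold change of -0.084 (SE 0.10, adjusted p = 0.72). None of the 4 passed. The fold changes are on the TMM scale, while the CPM are scaled by totals.

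With F17 left out of the fit, 2 members passed between foundresses trained to faces and workers, where 9.85% of 62117 contigs did. They were PfusTSAr1.0-057992, with a log2 fold change of 0.21 (SE 0.062, adjusted p = 0.038), and PfusTSAr1.0-101103, with 0.23 (SE 0.069, adjusted p = 0.042), both named after their values were seen. PfusTSAr1.0-057992 had 40.1 ± 1.89 CPM (n = 5) in foundresses trained to faces, 36.01 ± 1.44 CPM (n = 4) in allospecific and 37.2 ± 1.83 CPM (n = 4) in conspecific workers. PfusTSAr1.0-101103 had 49.9 ± 3.37 CPM in those foundresses, 45.02 ± 2.74 CPM in allospecific and 44.9 ± 2.80 CPM in conspecific workers. These CPM are on totals, where the castes lie closer than in the fold changes, which are on the TMM scale. On that scale, in the fit with F17, the 200 members had a median log2 fold change of 0.087, with 171 positive and 29 negative.

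When the rule was applied to the 8 foundresses without F17 alone, 93 of the 200 contigs it chose were members, and applied to the 8 workers alone, 65 were. These 2 lists shared 28 contigs, 14.0% of each. In the list chosen on foundresses the median SD was 0.084 log2 in foundresses and 0.116 log2 in workers, whose window median was 0.163 log2. In the list chosen on workers it was 0.142 log2 in foundresses, whose window median was 0.211 log2, and 0.066 log2 in workers. The larger SD in the caste that had not chosen a list follows from the choice, and in that caste both lists were narrower than the window.

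These lists leave the level in the other caste free. In the list chosen on foundresses 5 contigs differed over 1.5-fold between the castes, where the window of that rule gives 4.92%, and the differences of foundresses minus workers ran from -0.82 to 0.55 log2. In the list chosen on workers 1 did, where the window gives 5.49%, and they ran from -0.72 to 0.32 log2. The castes did not overlap in 15 contigs (7.5%) of the list chosen on foundresses, where its window gives 3.76%, and in 18 (9.0%) of the list chosen on workers, where its window gives 4.72%. A narrow range in the caste that chose the list makes groups easier to part, so nothing is read from these counts. Against the list chosen on workers the 8 foundresses had median deviations of -0.21 log2, in F34, to 0.010 log2, in F55, on the scale of totals.

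Set against foundresses trained to patterns, F17 included, the face-trained foundresses differed in 0 of 200 members at the FDR, as in 0.0% of all contigs, and 5 had an unadjusted p under 0.05, against 7.14% of all. PfusTSAr1.0-113941 had 80.7, 82.0, 83.0, 84.7 and 82.6 CPM with faces, and 43.8, 68.1, 69.8 and 80.3 CPM with patterns in F17, F3, F34 and F52. Its log2 fold change was 0.28 (SE 0.12, adjusted p = 0.68), and without F17 it was 0.19 (SE 0.097, adjusted p = 0.46). Its neighbour PfusTSAr1.0-113944 had 78.8 to 85.1 CPM with faces, and 46.4, 72.3, 71.4 and 74.8 CPM with patterns (log2 fold change 0.25, SE 0.11, adjusted p = 0.68). In both, every foundress trained to faces lay above every one trained to patterns on the scale of totals. On the TMM scale, which the fold changes use, F55 fell below F34 and the groups overlapped in both. These contigs were picked for their small p, and such separation was not counted over all contigs, so nothing is read from it.

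On the lower side stood PfusTSAr1.0-043682, with a log2 fold change of -0.52 (SE 0.25, adjusted p = 0.69) that was 0.030 (SE 0.099, adjusted p = 0.94) without F17, so F17 alone set its direction. PfusTSAr1.0-107949 had 55.9, 59.1, 50.7, 51.0 and 50.2 CPM with faces and 72.9, 60.2, 53.6 and 58.0 CPM with patterns (log2 fold change -0.29, SE 0.15, adjusted p = 0.71), and -0.089 (SE 0.10, adjusted p = 0.78) without F17. In PfusTSAr1.0-043682 and in PfusTSAr1.0-107949 the groups overlapped with F17 and without it.

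Between workers on allospecific and on conspecific nests 0 of 200 passed the FDR, against 0.0115% of all contigs, and 0 had an unadjusted p under 0.05, against 2.65% of all. The smallest p on the higher side belonged to PfusTSAr1.0-105277, at 58.5, 52.8, 61.8 and 54.0 CPM in allospecific and 55.01, 51.4, 49.2 and 50.7 CPM in conspecific workers, and to PfusTSAr1.0-071547, at 46.3, 43.0, 44.6 and 50.5 CPM in allospecific and 41.9, 44.0, 43.7 and 40.2 CPM in conspecific workers. Lower in allospecific workers were PfusTSAr1.0-083196, at 36.7 ± 2.22 CPM (n = 4) in allospecific and 40.3 ± 1.94 CPM (n = 4) in conspecific workers, and PfusTSAr1.0-106878, at 143.9 ± 10.6 and 160.9 ± 6.05 CPM in the same order. The pair on the higher side had log2 fold changes of 0.17 and 0.14 (SE 0.11 for both), and the other pair had -0.11 (SE 0.11) and -0.13 (SE 0.14). In edgeR the adjusted p was 1.00 for all 4, and none passed.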

How the data were processed

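RNA of 17 single brains was measured, 1 library per wasp. The values deposited are raw counts per contig: whole numbers, with a different sum in each library. Trimmomatic 0.32, Bowtie2 and eXpress are named, without roles, in the submitters' processing notes; how reads matching several contigs were counted is not given in the sources used here.

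CPM are counts over library totals, and log2 values used a pseudocount of 1. Contrasts were fitted in R 4.3.3 with edgeR 4.0.16 on all 17 libraries (expression filter by group, 61002 contigs left, TMM, 1 mean per group, quasi-likelihood F-test, two-sided, Benjamini-Hochberg over all tested contigs); a standard error (SE) is the log2 fold change over the square root of F. The other steps used Python 3.11.15 with pandas 2.3.3. The rule and the fit were tested on simulated data. Libraries of 1 group differed by more than sampling noise, with a chi-square per degree of freedom of 6.69 or more.

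Members and tests were chosen with earlier results of these data known. The contigs named are the 8 members of smallest SD, the 4 of highest mean, the 6 highest and 6 lowest in F17, 2 on each side of the SD limit and, per contrast, the 2 of smallest p in each direction. Alternatives were other scalings (TMM, DESeq2 size factors), DESeq2 1.42.0, pseudocounts, filters, list sizes, windows, measures of spread, FDR levels and leaving out each wasp.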

Additional observations from a re-analysis of the deposited data

Results flagged for a closer look

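Dixon's test was run on 160 sets of values, in 4 groups, and singled out 20. Chance flags about 1 in 20 sets of unselected values, which these are not: the contigs were chosen for a small spread over wasps that include F3, F34 and F52, which makes F17 easier to single out in its group. Of the 20, 12 were F17 among the foundresses trained to patterns, and 6 of the contigs concerned had been picked for F17's own values. F17 had 49.3 CPM of PfusTSAr1.0-107276, 53.6 of PfusTSAr1.0-032747, 12.3 of PfusTSAr1.0-047473, 14.95 of PfusTSAr1.0-058265, 15.6 of PfusTSAr1.0-064662, 32.7 of PfusTSAr1.0-107386 and 46.4 of PfusTSAr1.0-113944, below the other 3 of its group. It had 111.2 CPM of PfusTSAr1.0-098596, 88.2 of PfusTSAr1.0-043682, 59.6 of PfusTSAr1.0-044030, 59.0 of PfusTSAr1.0-064099 and 191.6 of PfusTSAr1.0-106878, above them.

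The other 8 were spread over 7 wasps. Among foundresses trained to faces F25 was low in PfusTSAr1.0-032747, at 85.4 against 99.2 to 101.4 CPM, and F42 in PfusTSAr1.0-093295, at 43.6 against 50.6 to 53.3 CPM. Among allospecific workers FW11 was low in PfusTSAr1.0-047470, at 31.2 against 37.5 to 38.8 CPM, and FW44 high in PfusTSAr1.0-107386, at 66.3 against 52.4 to 54.4 CPM. Among conspecific workers FW25 was high in PfusTSAr1.0-107655, at 75.7 against 62.8 to 64.1 CPM, FW28 low in PfusTSAr1.0-102327, at 118.8 against 120.6 to 120.7 CPM, and FW10 low in PfusTSAr1.0-052008, at 34.3 against 37.6 to 38.0 CPM, and in PfusTSAr1.0-107949, at 48.5 against 57.2 to 58.3 CPM.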

How the results depend on the processing

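Which contigs count as most stable depends on the scaling. Of the 200, 85 were chosen again on TMM-scaled CPM, 82 with DESeq2 size factors, 90 by the median absolute deviation in place of the SD and 107 with F17 included, and 93 or 65 with the rule run on foundresses or on workers alone. Leaving out 1 wasp kept 141 (without F34) to 189, and the other settings kept 140 to 200, the lowest with F34 and F55 left out together. Pairs of wasps left out, centring on the members and 1 contig per run were chosen after seeing the data.

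The balance of F17 turned with the scaling: the 200 had a median deviation of -0.15 log2 on totals, 0.23 on TMM and 0.25 with DESeq2 size factors. Its share of members outside the range of the others was 66.0 to 81.0% over the settings tried. The share over 1.5-fold was 22.5 to 34.5%, and 4.0% lay over 2-fold. The median absolute deviation was 0.31 to 0.38 log2 when 1 wasp was left out, lowest without F34 and highest without FW11. It was 0.40 log2 for the same 200 on TMM and 0.41 with DESeq2 size factors, and 0.37 and 0.36 with lists chosen anew on those scales. Members passing between face-trained foundresses and workers numbered 0 to 2 with 1 wasp left out, 2 without F17 and 2 without F17 and F34, and 0 in all other settings, DESeq2 included. The training and nest contrasts had 0 members passing in the settings run, but DESeq2's own filter left 91 of the 200 members with an adjusted p for training. No paired analysis was possible because no label ties a wasp of 1 group to a wasp of another.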
